A study of Homo sapiens with 4 samples.

Results

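The MYC, MAX and MXD network without MYCN was followed in the human neuroblastoma line SK-N-BE(2), whose cells carried a scramble shRNA (sh-Scb, the control) or sh-SAPCD2, with 2 libraries per group. Its 10 members, MYC, MYCL, MAX, MXD1, MXD3, MXD4, MXI1, MNT, MGA and MLX, were taken by gene symbol from the 64252 genes of the count table, and 9 of them passed the filter on low counts, which left 18779 genes. SAPCD2, the knocked-down gene, encodes a protein linked to spindle orientation and proliferation. By the study's methods, the cells of both groups were infected with lentivirus and selected with puromycin, and all belong to 1 cell line. The labels do not say which of the study's SAPCD2 shRNAs the sequenced cells carried, nor whether the libraries of a group came from separate cultures, so that the p-values measure the spread between these libraries, which may be technical. That spread was unequal. The chi-square per degree of freedom between libraries, over tested genes, was 4.44 with sh-Scb and 39.3 with sh-SAPCD2. The test fits a shared dispersion to both groups.

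MYC, MYCN and MYCL are transcription factors of the basic helix-loop-helix leucine zipper class. They bind DNA at E-box sequences as dimers with MAX and recruit acetyltransferase complexes. The MXD proteins, MXI1 and MNT compete for MAX, bind the same sites and recruit SIN3 and histone deacetylases, and MGA joins MAX to a Polycomb complex with PCGF6. MLX is a MAX-like protein that pairs with MondoA (MLXIP) and ChREBP (MLXIPL), and also with some MXD proteins and MNT. Neuroblastoma lines with amplified MYCN, SK-N-BE(2) among them, are known for very high MYCN.

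The libraries held from 25347900 to 31850997 counts, and 3 counts were taken as the floor of detection. Levels are given as CPM, counts per 1000000 counts of a library adjusted by TMM factors of edgeR, on which scale the floor was 0.0955 to 0.119. This floor covers counting error only. All 11 markers of adrenergic neuroblastoma fixed for the check had over 1 CPM in every library. Their summed level was 3534 to 3635 CPM with sh-Scb and 2721 to 3490 CPM in SAPCD2-knockdown cells. Of 11 markers of other cell types, 7 stayed under 1 CPM in every library, among them CD3E and KRT5 with 0 counts. The other 4 were above 1 CPM in every library. They were PTPRC (8.94 to 12.4 CPM), EPCAM (3.40 to 4.58 CPM), COL1A1 (2.13 to 4.27 CPM) and PDGFRB. The summed level of the 11 was 191.9 CPM in each control library and 228.7 to 250.7 CPM in SAPCD2-knockdown cells, most of it PDGFRB. SAPCD2 had 83.6 and 82.2 CPM with sh-Scb and 35.4 and 52.5 CPM with sh-SAPCD2. Its log2 fold change of −0.91 had a standard error of 0.193 and an adjusted p = 0.0206 (quasi-likelihood test of edgeR, Benjamini-Hochberg over all tested genes). Fold changes throughout are sh-SAPCD2 over sh-Scb, with adjusted p from the same test. In bulk RNA, fewer cells expressing a gene and less RNA per cell cannot be told apart.

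Of the 9 tested members, MXD4, MNT and MLX rose in SAPCD2-knockdown cells, none fell, and 6 did not pass the adjusted p of 0.05. The 3 higher genes compare with 12.4% of all tested genes higher at that threshold and 12.5% lower. None of the 3 passed an absolute log2 fold change of 1, the size the study required of its DEGs, which 4.69% of tested genes did in the higher direction. The median log2 fold change of the 9 members was 0.32, against 0.02 over all tested genes, and 8 of the 9 had a value above 0, as did 51.2% of all tested genes. In 7 of the 9, both sh-SAPCD2 libraries lay above both control libraries, which was so for 33.5% of all tested genes.

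**Figure D1:**
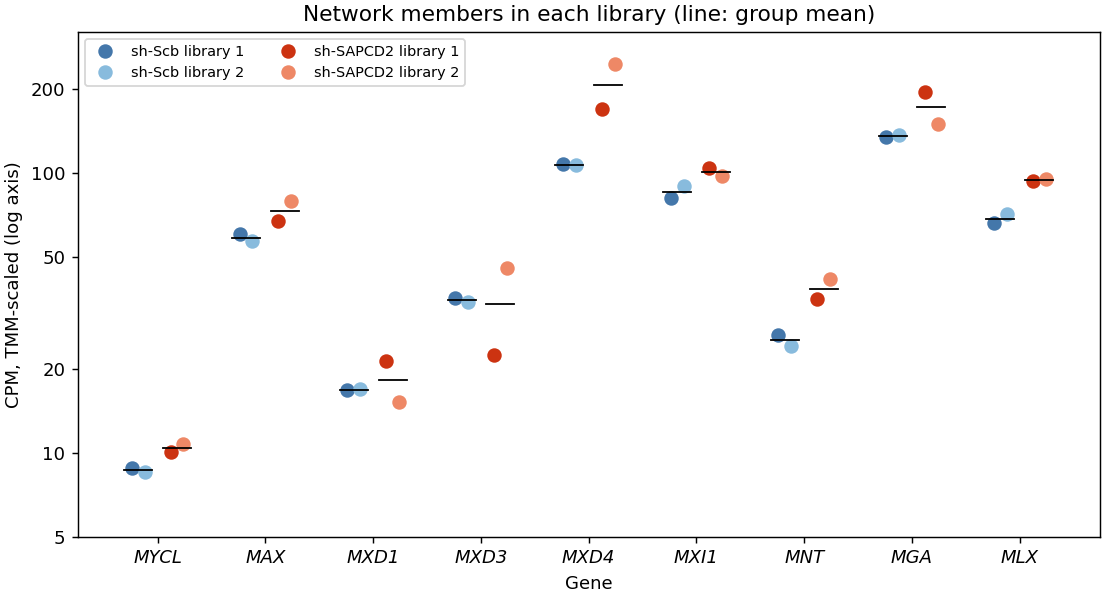
TMM-scaled CPM (log axis) of the 9 tested members in each library, with the mean of each group as a line. The MXD4, MNT and MLX points of both sh-SAPCD2 libraries sit above both control libraries, while those of MXD3 and MXD1 fall on either side of the controls.

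The E-box CACGTG was searched in the promoters, because it is the site that dimers of this network bind. Each RefSeq window (GRCh38.p14) ran from 250 bases before to 50 bases after a gene start, and both strands were read, which for this palindrome are the same. The search was made after the expression values were seen, and 9 members had a window, 14 windows in all. MYC is named only. A match occurred in 3 windows, those of MXD4, MNT and MLX, which are also the 3 members that passed the test. It was present in 7.26% of the 35116 windows. Counted per gene, 12.45% of the 11925 tested genes with a window held it. Among tested genes with a window, 16.9% of the higher genes, 10.1% of the lower genes and 12.02% of the genes not called held it, and the 1485 genes with a match had a median log2 fold change of 0.10 against 0.01 for the 10440 without. The variant CACGCG was found in a window of MXD3, MXI1 and MGA, and in 22.3% of higher, 22.2% of lower and 22.2% of uncalled genes. A match describes the letters and is not a bound site.

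The windows of the 3 members are printed to show the E-box in place, with CACGTG in capitals and all other bases in lower case. The MXD4 window is chr4:2262060-2262359 on the minus strand, and its E-box begins at position −238 from the start, at 2262342 to 2262347. The MNT window is chr17:2401011-2401310 on the minus strand, with the E-box at position −193, at 2401248 to 2401253. The MLX window is chr17:42566850-42567149 on the plus strand, with the E-box at position −50, at 42567050 to 42567055.
MXD4: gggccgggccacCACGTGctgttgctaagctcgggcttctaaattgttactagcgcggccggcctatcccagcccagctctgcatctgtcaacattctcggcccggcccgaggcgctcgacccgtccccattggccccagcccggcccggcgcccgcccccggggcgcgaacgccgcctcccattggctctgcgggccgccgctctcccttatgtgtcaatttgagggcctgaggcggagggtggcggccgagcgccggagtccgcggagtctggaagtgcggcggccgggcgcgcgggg
MNT: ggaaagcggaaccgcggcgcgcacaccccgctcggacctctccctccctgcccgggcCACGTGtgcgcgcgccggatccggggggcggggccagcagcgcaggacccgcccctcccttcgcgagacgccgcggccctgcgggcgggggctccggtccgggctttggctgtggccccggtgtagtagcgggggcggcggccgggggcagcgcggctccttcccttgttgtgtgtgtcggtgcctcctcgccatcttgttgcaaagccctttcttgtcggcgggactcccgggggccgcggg
MLX: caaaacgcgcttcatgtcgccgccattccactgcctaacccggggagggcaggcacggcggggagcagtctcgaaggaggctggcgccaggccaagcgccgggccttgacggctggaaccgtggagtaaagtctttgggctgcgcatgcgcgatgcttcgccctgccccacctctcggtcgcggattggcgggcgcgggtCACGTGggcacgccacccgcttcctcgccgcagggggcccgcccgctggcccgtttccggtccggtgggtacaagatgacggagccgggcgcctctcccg

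Of the MYC paralogs among the members, MYC (ENSG00000136997, chromosome 8 from 127735434 to 127742951 in hg38) was at or below the floor. It had 0 counts in both control libraries, which allows up to 0.109 CPM in each, 0 counts in the first sh-SAPCD2 library, which allows up to 0.119 CPM, and 3 counts, 0.0955 CPM, in the second. No fold is given for it, since neither group rose above 3 counts in a library. MYCL (chromosome 1 from 39895428 to 39902256) was low but detected, with 8.83 and 8.54 CPM with sh-Scb and 10.03 and 10.8 CPM in SAPCD2-knockdown cells. The groups did not overlap, and the log2 fold change of 0.26 did not pass the test (95% confidence interval −0.13 to 0.65, adjusted p = 0.282).

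MYCN, the paralog with the most RNA in these cells, had 3235 and 3178 CPM with sh-Scb and 5904 and 7091 CPM in SAPCD2-knockdown cells. This was a log2 fold change of 1.02 (standard error, SE, 0.111, adjusted p = 0.00378). Per kb of annotated exon, MYCN made up 99.9% of the summed level of MYC, MYCN and MYCL in every library (99.85% in each control library, 99.91% and 99.92% in the sh-SAPCD2 libraries).

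MAX, the shared partner (chromosome 14 from 65006174 to 65102695, minus strand), had 60.6 and 57.2 CPM with sh-Scb and 67.5 and 79.6 CPM in SAPCD2-knockdown cells. Both knockdown libraries were above both controls, and the log2 fold change was 0.32 (95% confidence interval 0.01 to 0.63, adjusted p = 0.114). It was 0.20 without the second sh-SAPCD2 library. Of the annotated exon bases of MAX, 13.1% lie in exons of FNTB, a farnesyltransferase subunit on the opposite strand. FNTB fell, with a log2 fold change of −0.73 (adjusted p = 0.0152). Exons of CHURC1-FNTB, also on the opposite strand, hold 9.96% of the MAX exon bases. CHURC1-FNTB had 16 and 13 counts with sh-Scb and 0 and 108 counts with sh-SAPCD2. The strandedness of the counting is not given in the sources used here, and the part of these genes in the counts of MAX was not tested. Within each library the log2 ratio of MAX to MYCN counts was −5.74 and −5.80 with sh-Scb and −6.45 and −6.48 in SAPCD2-knockdown cells, a difference of −0.70.

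Among the MXD antagonists, MXD4, a member usually expressed in differentiating and resting cells, had the largest change. MXD4 (ENSG00000123933) lies on chromosome 4 from 2247432 to 2262109 on the minus strand, has 6 exons in its canonical transcript, and overlaps no other annotated gene of the table. It had 2976 and 2948 counts with sh-Scb and 4289 and 7726 counts with sh-SAPCD2, or 107.7 and 107.1 CPM against 169.4 and 246 CPM. Both knockdown libraries were far above the controls, and they differed more from each other than the controls did. The log2 fold change was 0.95 (SE 0.181, 95% confidence interval 0.51 to 1.39, adjusted p = 0.0153). It was 0.66 with the first sh-SAPCD2 library alone as the knockdown group and 1.19 with the second alone.

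MXD3 (chromosome 5 from 177301461 to 177312757, minus strand), which is tied to S phase in proliferating cells, gave no common direction. It had 35.8 and 34.6 CPM with sh-Scb, 22.3 CPM in the first sh-SAPCD2 library and 45.9 CPM in the second, 1 below and 1 above the controls. The log2 fold change was −0.04 (95% confidence interval −0.81 to 0.72, adjusted p = 0.933). Without the second sh-SAPCD2 library it was −0.66 (adjusted p = 0.00537), and without the first it was 0.38 (adjusted p = 0.0173). Annotated exons of MXD3 share 24.2% of their bases with PRELID1 on the opposite strand and 19.5% with RAB24, a small GTPase gene on the same strand. RAB24 had 31.6 and 28.3 CPM with sh-Scb and 33.7 and 57.4 CPM with sh-SAPCD2, so that it too was highest in the second sh-SAPCD2 library. The part of these genes in the counts of MXD3 was not tested.

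MXD1 (chromosome 2 from 69897688 to 69942945), known for its rise in differentiation, also lay on both sides of the controls. It had 16.7 and 16.9 CPM with sh-Scb, 21.4 CPM in the first sh-SAPCD2 library and 15.1 CPM in the second. The log2 fold change was 0.12 (95% confidence interval −0.36 to 0.59, adjusted p = 0.693), and −0.16 without the first sh-SAPCD2 library. MXI1 (chromosome 10 from 110207605 to 110287365), an antagonist of the same family, had 81.8 and 90.1 CPM with sh-Scb and 104.9 and 97.6 CPM in SAPCD2-knockdown cells. The groups did not overlap, and the log2 fold change of 0.24 did not pass the test (95% confidence interval −0.03 to 0.50, adjusted p = 0.167).

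MNT, the broadly expressed antagonist, rose in SAPCD2-knockdown cells. MNT (ENSG00000070444, chromosome 17 from 2384073 to 2401104, minus strand) had 728 and 663 counts with sh-Scb and 899 and 1311 counts with sh-SAPCD2, or 26.4 and 24.1 CPM against 35.5 and 41.7 CPM. The log2 fold change was 0.62 (SE 0.143, 95% confidence interval 0.27 to 0.96, adjusted p = 0.0271). The only gene annotated over it, a lncRNA on the opposite strand, had 0 counts in every library. MGA (chromosome 15 from 41621134 to 41773081), the largest member with 24 exons in its canonical transcript, had 134.5 and 137.6 CPM with sh-Scb and 195.3 and 150.7 CPM in SAPCD2-knockdown cells. Both were above the controls, with a log2 fold change of 0.35 (95% confidence interval 0.00 to 0.69, adjusted p = 0.126). It was 0.14 without the first sh-SAPCD2 library and 0.52 without the second (adjusted p = 0.038 and 0.000725).

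MLX rose with the smallest standard error of the 3 called members, although its control libraries lay further apart than those of MXD4. MLX (ENSG00000108788, chromosome 17 from 42567072 to 42573239) had 1833 and 1963 counts with sh-Scb and 2379 and 2990 counts with sh-SAPCD2, or 66.4 and 71.3 CPM against 94.0 and 95.2 CPM. The log2 fold change was 0.46 (SE 0.105, 95% confidence interval 0.20 to 0.71, adjusted p = 0.0261). Of the exon bases of MLX, 18.2% lie in exons of PSMC3IP, a recombination gene on the opposite strand, which fell (log2 fold change −1.21, adjusted p = 0.00613).

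**Figure D2:**
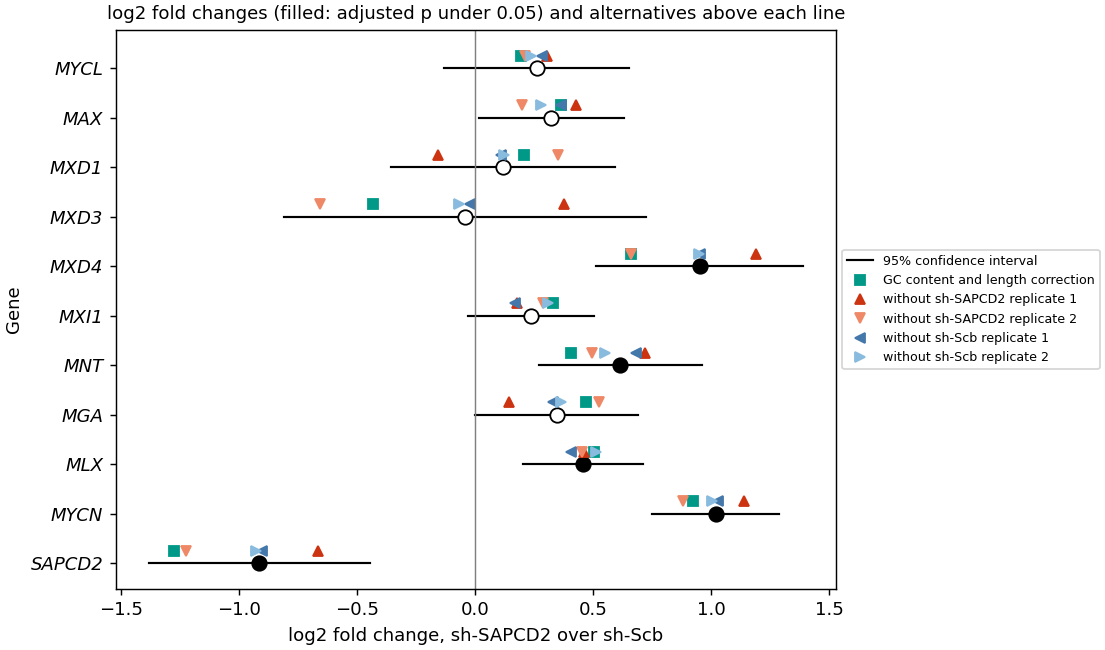
log2 fold change of the 9 tested members, MYCN and SAPCD2 with the 95% confidence interval (filled points passed an adjusted p of 0.05), and above each line the value under a correction for GC content and length or without 1 library. MXD4, MNT, MLX and MYCN stay to the right of 0 under each of these, while MXD3 runs from −0.66 to 0.38.

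The second sh-SAPCD2 library read GC-rich genes higher than the first. Among tested genes with at least 1 CPM, the 2192 with a canonical transcript of 60% GC or more had a median log2 ratio of the second to the first sh-SAPCD2 library of 0.46, and the 5587 with 45% or less had −0.22. Between the control libraries these medians were −0.01 and 0.01. The classes also differed between the groups. The median log2 fold change, sh-SAPCD2 over sh-Scb, was 0.32 in the GC-rich class, which holds MXD3, MXD4 and MNT, and −0.08 in the GC-poor class. The members with the highest GC content were MXD3 (65.6%), MXD4 (63.5%) and MNT (61.3%), and their log2 ratios of the second to the first sh-SAPCD2 library were 1.04, 0.54 and 0.23. MXD1 (42.5%) and MGA (43.2%), with the lowest, had −0.50 and −0.37. With each library corrected for GC content and length, 6 members were higher, namely MAX, MXD4, MXI1, MNT, MGA and MLX, while the share of all tested genes called higher rose from 12.4% to 21.0%. Their log2 fold changes under this correction were from 0.33 for MXI1 to 0.66 for MXD4, and that of MNT fell from 0.62 to 0.41. MXD3 had −0.43 (adjusted p = 0.0838). Without the first sh-SAPCD2 library the log2 fold change of MXD3 was 0.38 and that of MXI1 was 0.18. Without the second, 5 members and 17.9% of all tested genes were higher, and MXD3 was lower. Without the first control library, and without the second, only MXD4 of the 9 passed the adjusted p of 0.05, and 6.09% and 5.92% of all tested genes were higher. Without the filter on low counts, none of the members passed, and 3.09% of all tested genes were higher.

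Ratios of counts between members within a library do not depend on how libraries are scaled. These pairs were selected with the values in view. The log2 ratio of MXD4 to MAX was 0.83 and 0.91 with sh-Scb and 1.33 and 1.63 in SAPCD2-knockdown cells, and that of MNT to MAX was −1.20 and −1.25 against −0.93 and −0.93. In both, the knockdown libraries lay above the controls. Such ratios keep any effect of GC content, which was 63.5% for MXD4, 61.3% for MNT and 49.4% for MAX. With the correction for GC content and length, the log2 fold changes of MXD4, MNT and MAX were 0.66, 0.41 and 0.36. The part of GC content in these ratios was not tested. For MGA, MLX and MXI1 to MAX the groups overlapped. MXD3 to MAX had log2 ratios of −0.76 and −0.72 with sh-Scb and −1.60 and −0.79 in SAPCD2-knockdown cells, lower in both knockdown libraries than in either control. The log2 ratio of MXD4 to MXD3 was 1.59 and 1.63 with sh-Scb and 2.93 and 2.42 in SAPCD2-knockdown cells, higher in both knockdown libraries than in either control. The log2 ratio of MXD4 to MYCN was −4.91 and −4.89 with sh-Scb and −5.12 and −4.85 in SAPCD2-knockdown cells, and overlapped between groups. With 2 libraries per group, an exact permutation test cannot reach the threshold, and none was run on these ratios.

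**Figure D3:**
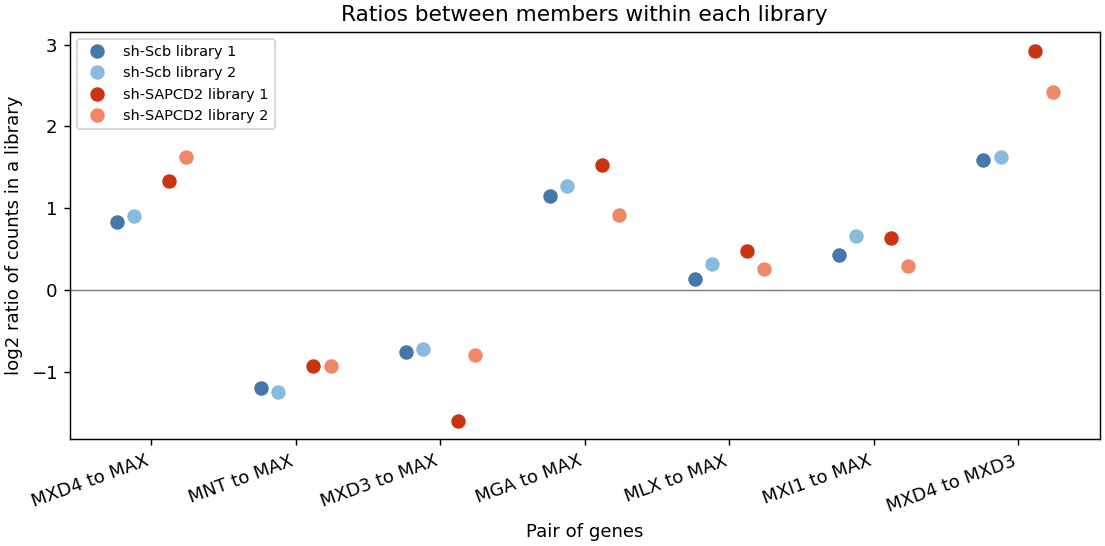
log2 ratio of raw counts of 2 genes in each of the 4 libraries. The groups are separate for MXD4 to MAX, MNT to MAX, MXD3 to MAX and MXD4 to MXD3, with the first sh-SAPCD2 library lowest for MXD3 to MAX at −1.60.

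Per kb of annotated exon, the order of the member levels with sh-Scb was MLX (15.6 to 16.8 CPM per kb), MXD4 (15.6 to 15.7), MXI1 (13.8 to 15.3), MAX (9.14 to 9.69), MXD3 (7.30 to 7.55), MGA (6.70 to 6.85), MNT (2.77 to 3.03), MXD1 (2.63 to 2.65), MYCL (1.72 to 1.78) and MYC. The ranges of MLX and MXD4 overlapped, and no other neighbors did. In SAPCD2-knockdown cells MXD4 was first with 24.6 to 35.8 CPM per kb and MLX second with 22.1 to 22.4, and the ranges of MGA, MXD3 and MNT overlapped in turn. Divided by the length of the canonical transcript, MXD3 came first with sh-Scb (32.5 to 33.6 CPM per kb), and MAX (28.4 to 30.2) and MLX (28.1 to 30.2) overlapped, so the order at the top depends on the length, an alternative chosen after seeing the data. Summed over MXD1, MXD3, MXD4, MXI1, MNT and MGA, the antagonists had 49.4 and 50.4 CPM per kb with sh-Scb and 64.3 and 76.7 CPM per kb in SAPCD2-knockdown cells. MXD4 supplied 31.7% and 30.9% of this sum with sh-Scb and 38.4% and 46.7% in SAPCD2-knockdown cells.

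The genes closest to MXD4 in pattern, by Euclidean distance of log2 CPM centered on each gene's mean over the 4 libraries, were NBL1, MIRLET7BHG and MPST, at distances of 0.00304, 0.0150 and 0.0306 among 15681 genes with at least 1 CPM. NBL1, which encodes a secreted BMP antagonist, had 38.6 and 38.5 CPM with sh-Scb and 60.8 and 88.4 CPM in SAPCD2-knockdown cells. These 4 libraries hold only 2 conditions, so that many genes can share such a pattern.

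In the branch of MLX, 2 of 3 tested genes were higher and 1 was lower, where 12.4% and 12.5% of all tested genes were. MLXIP, the partner MondoA, had 165.5 and 161.4 CPM with sh-Scb and 100.5 and 116.7 CPM in SAPCD2-knockdown cells (log2 fold change −0.59, SE 0.113, adjusted p = 0.0156). ARRDC4, an arrestin-domain regulator of glucose uptake, had 12.9 and 10.5 CPM against 29.3 and 26.1 CPM (log2 fold change 1.24, SE 0.165, adjusted p = 0.00587), and was the only gene of this list past an absolute log2 fold change of 1. TXNIP, the thioredoxin-interacting protein, had 138.5 and 133.6 CPM against 180.3 and 171.3 CPM (log2 fold change 0.37, adjusted p = 0.0384). Without the first or the second control library, 1 gene, ARRDC4, was higher and none lower, with adjusted p = 0.174 and 0.137 for MLXIP and 0.425 and 0.506 for TXNIP. TXNIP also missed the threshold with the replicate block (adjusted p = 0.0796) and without the filter on low counts (adjusted p = 0.0822). MLXIPL had 0 and 6 counts with sh-Scb and 2 and 4 counts with sh-SAPCD2 and was not tested.

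The MGA-PCGF6 complex list, with 12 tested genes, had 1 higher and 2 lower genes and a median log2 fold change of −0.22, beside 12.4% and 12.5% of all tested genes. Its lower genes were fewer without either control library and more numerous without either sh-SAPCD2 library. The share of all tested genes called lower moved the same way. E2F6, the E2F repressor of this complex, rose from 36.1 and 33.9 CPM to 52.5 and 52.8 CPM (log2 fold change 0.59, adjusted p = 0.0171). PCGF6, its Polycomb ring finger subunit, fell from 19.6 and 16.0 CPM to 8.41 and 12.04 CPM (log2 fold change −0.79, adjusted p = 0.0462), and L3MBTL2, a chromatin reader, fell from 26.9 and 28.9 CPM to 15.3 and 19.8 CPM (log2 fold change −0.67, adjusted p = 0.0345). With the correction for GC content and length, PCGF6 had −0.62 and missed the threshold (adjusted p = 0.0646). Without the filter on low counts, PCGF6 and L3MBTL2 both missed it (adjusted p = 0.130 and 0.095). TFDP1, the dimer partner of E2F6, had a log2 fold change of −0.32 (adjusted p = 0.0615).

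The SIN3 and NCOR corepressor list, the machinery that MXD proteins recruit, had 1 higher and 4 lower genes of 19 tested and a median log2 fold change of −0.21, against the same shares of all tested genes. SIN3B, a scaffold that binds the MXD proteins, rose from 74.2 and 73.6 CPM to 110.8 and 129.4 CPM (log2 fold change 0.70, SE 0.118, adjusted p = 0.0108). SIN3A, the other scaffold, had −0.34 (adjusted p = 0.0969). SAP130, a SIN3-associated subunit, fell from 43.0 and 39.4 CPM to 16.5 and 12.6 CPM (log2 fold change −1.50, adjusted p = 0.00417), and SINHCAF, BRMS1L and RBBP4, further subunits, fell by 0.77, 0.61 and 0.44 on the log2 scale. HDAC1 and HDAC2, the deacetylases shared with the list before, had log2 fold changes of −0.12 and −0.27 and did not pass the test. The lower genes numbered 1 and 2 without the first and the second control library, where 5.81% and 5.80% of all tested genes were lower, and 11 and 10 without the first and the second sh-SAPCD2 library, where 20.2% and 17.7% were. SIN3A, HDAC1, HDAC2 and RBBP4 were named after their values were seen.

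Of 19 MYC coactivators and binding partners, none was higher, 1 was lower and 18 did not pass the test, with a median log2 fold change of −0.07, beside 12.4% higher and 12.5% lower of all tested genes. The lower genes numbered 6 with the correction for GC content and length, where 18.3% of all tested genes were lower. They were fewer without either control library and more numerous without either sh-SAPCD2 library. The share of all tested genes called lower moved the same way in these fits. The lower gene was ACTL6A, an actin-related subunit of chromatin complexes, with a log2 fold change of −0.60 (adjusted p = 0.0137). PAF1, EP400 and KAT2A came next by p, with log2 fold changes of 0.44, −0.34 and −0.41 (adjusted p = 0.0547, 0.0713 and 0.0938). In the MYC protein turnover list, 3 genes were higher and 6 lower of 18 tested, beside 12.4% and 12.5% of all tested genes, and the median was −0.14. Both counts were smaller without either control library and larger without either sh-SAPCD2 library, and so were the shares of all tested genes. FBXW7, the ubiquitin ligase subunit that recognizes phosphorylated MYC proteins, rose from 46.1 and 46.3 CPM to 86.7 and 72.7 CPM (log2 fold change 0.79, SE 0.128, adjusted p = 0.00997). GSK3B, the kinase that phosphorylates the site FBXW7 reads, fell from 136.7 and 136.1 CPM to 74.7 and 57.5 CPM (log2 fold change −1.05, SE 0.146, adjusted p = 0.00646). CIP2A and SET, inhibitors of the phosphatase PP2A, fell by 1.06 and 0.66 on the log2 scale (adjusted p = 0.00862 and 0.00591). The other higher genes, USP36 and STUB1, had 0.52 and 0.87, and were named after their values were seen.

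The MYC target genes, a list of growth, ribosome biogenesis and nucleotide synthesis genes, held 7 higher and 4 lower genes of 44 tested, with 33 that did not pass the test, beside 12.4% higher and 12.5% lower of all tested genes. The median log2 fold change was 0.22, and 29 of the 44 were above 0. The higher genes included TFRC, the transferrin receptor (306.3 and 299 CPM against 539 and 479.9 CPM, log2 fold change 0.75, adjusted p = 0.00606), and NOP16, a ribosome assembly factor (log2 fold change 0.71, adjusted p = 0.00949). LDHA, lactate dehydrogenase, fell from 48.1 and 46.7 CPM to 23.7 and 19.3 CPM (log2 fold change −1.14, adjusted p = 0.00565), and SRM, spermidine synthase, fell from 119.6 and 127.4 CPM to 36.3 and 53.9 CPM (log2 fold change −1.45, adjusted p = 0.00591). The other lower genes were NPM1 and DKC1, nucleolar proteins named after their values were seen, with −0.41 and −0.37. The study's own gene set enrichment gave a larger Hallmark set of MYC targets a negative score, toward lower expression in SAPCD2-knockdown cells. Its core genes included LDHA, SRM and NPM1. The positive median here thus describes this list and not MYC targets as a class. Without the first or the second control library 1 target gene was higher and 2 were lower, whereas without the first sh-SAPCD2 library 24 were higher and 11 lower, and without the second 16 were higher and 9 lower. In these last fits 22.1% and 17.9% of all tested genes were higher and 20.2% and 17.7% lower. Taken as 1 set of 112 tested genes, the 6 lists had 14 higher and 18 lower genes and a median log2 fold change of −0.06.

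**Figure D4:**
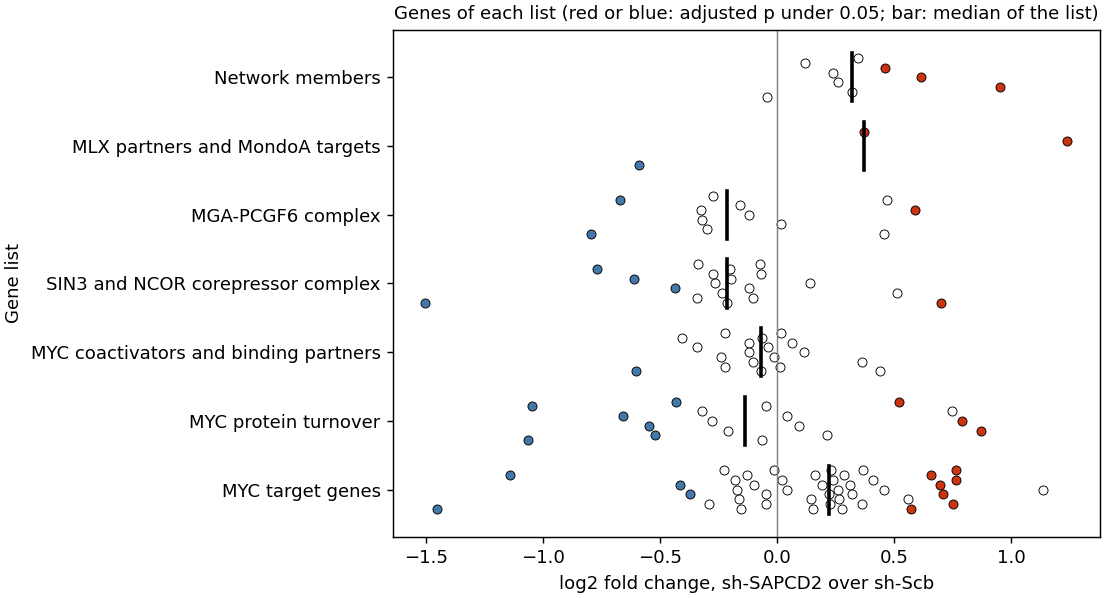
log2 fold change of each tested gene in the network and the 6 related lists, where red and blue points passed an adjusted p of 0.05, bars mark list medians and height within a list only separates points. The called network members lie to the right of 0, and the corepressor and turnover lists hold called genes on both sides.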

How the data were processed

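RNA was sequenced from SK-N-BE(2) cells with sh-Scb or sh-SAPCD2, 2 libraries per group. The authors aligned paired-end reads to hg38 with HISAT2 2.2.0 (per the labels), estimated abundances with StringTie and deposited unscaled whole-number counts per Ensembl gene. The step from coverage to counts, the Ensembl release, strandedness and multi-mapping are not given in the sources used here. Replicate numbers came from the titles.

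Counts were tested in R 4.3.3 with edgeR 4.0.16 (TMM, filterByExpr with a minimum count of 10 and total of 15, quasi-likelihood test, Benjamini-Hochberg over all tested genes, threshold 0.05). A check on simulated counts came first. It gave both groups the same dispersion and required only that median log2 fold changes were recovered. It therefore cannot show how the p-values behave under the unequal spread of these groups. GENCODE 44 gave symbols and positions for 93.0% of tested genes. The members and lists were chosen with earlier results of these data known. Alternatives were DESeq2 1.42.0, other scalings and filters, the replicate block, a loess correction for GC content and length (span 0.3), protein-coding genes only and each library left out. Named genes were the members, SAPCD2, MYCN, at most the 4 of each list with the smallest p, and the 3 closest in pattern to the most changed member.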

Additional observations from a re-analysis of the deposited data

How the results depend on the processing

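With 2 libraries per group, MXD4 passed the adjusted p of 0.05 in 12 of 13 alternatives (log2 fold change 0.66 to 1.19), and MNT (0.41 to 0.72) and MLX (0.41 to 0.51) each in 10, always above 0. The replicate numbers were only shared, since deviations of same-numbered libraries had a correlation of 0.00132 across genes, and with the replicate block MXD4, MNT and MLX were the 3 higher members and all genes gave 2860 higher and 2701 lower. The cause of the changes below was not tested. Higher and lower calls among all tested genes were 2326 and 2339. Without the filter on low counts, which tests 34935 genes, 0 members were higher, all genes gave 1081 and 1180, the 6 related lists 9 and 10, and SAPCD2, still −0.91, missed the threshold (adjusted p = 0.0749). With the correction for GC content and length, 6 members were higher, 3940 of all genes were higher, and the lists gave 29 higher and 28 lower. With the replicate block and this correction, 6 members were higher and 1, MXD3, lower, 3905 of all genes were higher and 26 of the lists were higher. With an absolute log2 fold change over 1 also required, 0 members were higher, and the counts were 880 and 968 for all genes and 1 and 5 for the lists. With each library left out, higher members ranged from 1 to 6 and lower members from 0 to 1, all genes from 1176 to 4396 higher and 1146 to 4014 lower, and the lists from 3 to 37 higher and 5 to 43 lower. In these fits the lone library of a group is assumed to vary like the other group. For higher members, all genes and the lists, the lowest counts were without a control library and the highest without the first sh-SAPCD2 library, where MXD1 and MXD3 changed sign. The lower member, MXD3, was called without the second sh-SAPCD2 library. With each library left out, MXD1 ranged from −0.16 to 0.35 and MXD3 from −0.66 to 0.38 on the log2 scale. Of the values of single genes, 360 kept their direction and side of the threshold, 36 lost a call, 31 gained one and 2 turned. Of the counts of single lists, 99 stayed within 1.5 times and 69 did not.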

Other observations

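IPO4, an importin of the MYC target list singled out after its values were seen, had 6.84 and 65.1 CPM with sh-Scb and 67.3 and 90.7 CPM with sh-SAPCD2. The control libraries differed from each other far more than for the other named genes, and IPO4 did not pass the test.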
